A study of Homo sapiens with 4 samples.

Results

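The 30 genes described here encode the cholesterol synthesis enzymes, the fatty acid synthesis and desaturation enzymes, and the regulators that control both pathways. They were taken from a list of gene symbols by a rule that uses no measured value, although the list was drawn up with earlier results of these data known, and each of the 30 symbols mapped to 1 of the 60671 Ensembl identifiers in the deposited tables. They lie on 15 chromosomes in GENCODE 29 (GRCh38). Cholesterol is built from acetyl-CoA through mevalonate, farnesyl diphosphate and squalene, and fatty acids are built from cytosolic acetyl-CoA by carboxylation and chain extension. Both pathways are transcribed under the sterol regulatory element-binding proteins SREBP-1 and SREBP-2, membrane proteins that SCAP carries from the endoplasmic reticulum to the Golgi for cleavage when sterols are low, and that INSIG proteins hold back when sterols are plentiful. In prostate cancer cells, lipid synthesis is known to respond to androgens.

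RNA sequencing covered 22RV1 and PC3, both established human prostate carcinoma cell lines. Each line was transduced with lentivirus carrying an shRNA against DDX52, a DEAD-box RNA helicase (shDDX52), or a control shRNA (shCON), and stable transformants were selected with puromycin. A single shRNA sequence against DDX52 was used, all cells carried the same vector backbone, and each of the 4 conditions had 1 library. Differences given here are therefore without replicates, and neither p-values nor standard errors were computed. The authors deposited TPM, the length-corrected share of transcripts in a library, which keeps no sequencing depth, so the reads behind a value are unknown.

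The targeted gene, DDX52, was 4.88 TPM in the 22RV1 shCON library against 1.2 TPM with shDDX52 and 9.20 TPM in the PC3 shCON library against 2.07 TPM with shDDX52, so 24.6% of its control level was left in 22RV1 and 22.5% in PC3. KLK2 and KLK3, kallikreins of the prostate epithelium, were 32.6 and 23.1 TPM and 6.84 and 4.51 TPM in 22RV1, shCON first, and were listed at 0 in both PC3 libraries. The PC3 markers CAV1 and CD44 were 162 and 130.2 TPM and 571 and 664 TPM in PC3, shCON first. VIM, the mesenchymal filament gene, stood apart: it was 12.6 and 66.7 TPM in PC3, shCON first, and AXL was 32.6 and 79.3 TPM. Between 8.10% and 13.0% of a library's TPM came from mitochondrially encoded genes, more with shDDX52 in each line, and between 0.0872% and 3.13% from nuclear rRNA genes and pseudogenes, with the highest share in PC3 shDDX52. Since TPM has a fixed total, a larger share for such genes makes the others look smaller, and for the members this was followed through other scalings.

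Changes are given as the log2 ratio, log2((TPM shDDX52 + 1) / (TPM shCON + 1)). A gene was counted as tested in a cell line when it reached 1 TPM in either of its libraries, and as changed when the log2 ratio reached 1.5-fold, which is 0.585 in either direction. All 30 members passed this filter in both lines, and 28 stood at 5 TPM or more in all 4 libraries. For low genes, here STARD4 and ELOVL6, the pseudocount of 1 TPM makes a change look smaller than it is.

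The promoters of the members that reached 1.5-fold higher in either cell line, and of SREBF2, are shown first because the sterol regulatory element and its partner sites lie in such regions. The 250 bases upstream of the annotated RefSeq start were read on GRCh38.p14, and 26 of the 30 members had an entry. ACAT2, FDFT1, SQLE and FASN had none, so their promoters were not searched. Capitals mark TCACNCCAC or CACCCCAC (cores of the sterol regulatory element, the latter largely contained in the former), CACGTG (an E-box) and CCAAT (the box bound by NF-Y, a factor known to act beside SREBP), on either strand, so that CCAAT also appears as ATTGG.
SREBF2 promoter, chr22:41832855-41833104, plus strand: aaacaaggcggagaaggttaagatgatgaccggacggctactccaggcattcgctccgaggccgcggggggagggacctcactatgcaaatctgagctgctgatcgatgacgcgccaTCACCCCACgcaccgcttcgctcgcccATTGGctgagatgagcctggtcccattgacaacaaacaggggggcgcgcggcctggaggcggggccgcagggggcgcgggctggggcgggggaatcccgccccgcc
HMGCS1 promoter, chr5:43313413-43313662, minus strand: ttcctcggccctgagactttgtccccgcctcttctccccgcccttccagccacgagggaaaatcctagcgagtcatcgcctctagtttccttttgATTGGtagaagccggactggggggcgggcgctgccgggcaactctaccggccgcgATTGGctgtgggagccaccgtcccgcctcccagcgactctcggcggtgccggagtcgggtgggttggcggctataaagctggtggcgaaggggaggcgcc
INSIG1 promoter, chr7:155297628-155297877, plus strand: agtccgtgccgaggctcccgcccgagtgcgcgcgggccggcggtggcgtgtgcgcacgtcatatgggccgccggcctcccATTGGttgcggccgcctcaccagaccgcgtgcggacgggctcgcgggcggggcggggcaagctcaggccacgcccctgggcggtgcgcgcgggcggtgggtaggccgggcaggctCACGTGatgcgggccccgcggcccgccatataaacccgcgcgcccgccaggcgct
STARD4 promoter, chr5:111512536-111512785, minus strand: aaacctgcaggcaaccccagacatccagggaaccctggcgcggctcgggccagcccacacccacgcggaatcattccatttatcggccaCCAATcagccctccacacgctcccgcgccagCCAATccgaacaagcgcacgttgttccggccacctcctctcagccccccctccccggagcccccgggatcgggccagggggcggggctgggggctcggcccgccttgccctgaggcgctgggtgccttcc
ACLY promoter, chr17:41919023-41919272, minus strand: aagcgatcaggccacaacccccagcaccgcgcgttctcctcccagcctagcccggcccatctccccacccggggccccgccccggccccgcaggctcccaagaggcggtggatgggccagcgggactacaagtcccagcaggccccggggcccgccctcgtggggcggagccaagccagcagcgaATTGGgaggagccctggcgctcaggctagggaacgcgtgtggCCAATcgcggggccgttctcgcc
DHCR7 promoter, chr11:71448394-71448643, minus strand: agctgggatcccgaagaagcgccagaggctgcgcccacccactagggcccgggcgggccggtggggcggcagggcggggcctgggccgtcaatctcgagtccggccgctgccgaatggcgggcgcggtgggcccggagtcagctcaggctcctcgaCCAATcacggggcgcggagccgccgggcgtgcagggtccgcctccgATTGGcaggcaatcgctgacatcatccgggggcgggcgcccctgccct

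Of the 26 members with an entry, SREBF2 was the only one with TCACNCCAC in this window. Its match TCACCCCAC ran from base −133 to base −125 before the start, and a CCAAT box on the other strand followed at −106 to −102. Among the 26 members this is 3.85%, against 1.21% of the 11338 genes tested in either line that had a promoter entry. CACCCCAC, searched after the values were seen like the 3 motifs that follow, was likewise found in SREBF2 alone, against 3.17% of those genes. CCAAT stood in 19 of the 26 members, or 73.1%, against 41.2% of the genes tested. The GC box GGGCGG, not capitalized above, stood in 25 of 26 members, against 74.1%, and CACGTG in 3 of 26, namely SC5D, INSIG1 and SCAP, or 11.5% against 11.1%. The member windows had a median GC content of 69.2%, against 64.4% over the windows of the genes tested, and genes with several starts had several windows, which bears on such shares. All 5 members higher by 1.5-fold in either line held CCAAT in the first window listed, beside the 73.1% of members that held it in any window. The second windows of HMGCS1 and DHCR7 held none. The 2 members lower by 1.5-fold in PC3, SREBF1 and ELOVL6, held none. CCAAT was also present in members with log2 ratios near 0 in both lines, such as HSD17B7, IDI1 and MVD. Whether CCAAT goes with the direction of change was not tested, and these genes are too few to tell. A match describes the letters only, and their absence from a 250-base window says nothing of sites elsewhere.

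As a whole, the 30 members did not move together in either cell line. In 22RV1, 16 members were below 0 and 14 above, and the median log2 ratio was −0.016, beside −0.076 over the 14438 genes tested there. In PC3, 13 were below 0 and 17 above, with a median of 0.047 beside −0.036 over 14262 genes. Between the lines, 5 members were below 0 in both, 6 were above 0 in both and 19, or 63.3%, had opposite signs, where 48.8% of the 12175 genes tested in both lines did. Of these signs, those of FDFT1, HMGCS1, IDI1 and ACLY in 22RV1 and of ACAT2, FASN, MSMO1 and SQLE in PC3 turned under at least 1 other scaling, so they are best read as near 0. The typical size of a change was close to that of any gene, with a median absolute log2 ratio of 0.240 for the members and 0.226 for all genes in 22RV1, and of 0.224 and 0.269 in PC3.

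Few members reached 1.5-fold. In 22RV1 none was lower, where 8.47% of all genes tested were, and 1 was higher, where 5.61% of all genes were. In PC3, 2 of 30 were lower, against 9.84% of all genes tested, and 4 were higher, against 8.95%. At 2-fold, 0 members passed in 22RV1, where 2.86% of all genes were lower and 2.24% higher. ELOVL6 alone passed 2-fold in PC3, where it was lower, beside 3.44% of all genes lower and 2.86% higher. Counts of 4 and 2 among 30 lie close to these background shares and are not a result about the list. The genes tested reach down to 1 TPM, while 28 of the 30 members stood at 5 TPM or more in all libraries. Shares among genes of similar level were not computed, so the low counts in 22RV1 do not show that the members were steadier than such genes. Summed over the members, TPM was 3000 with shCON and 3025 with shDDX52 in 22RV1, and 1981 and 2071 in PC3.

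**Figure D1:**
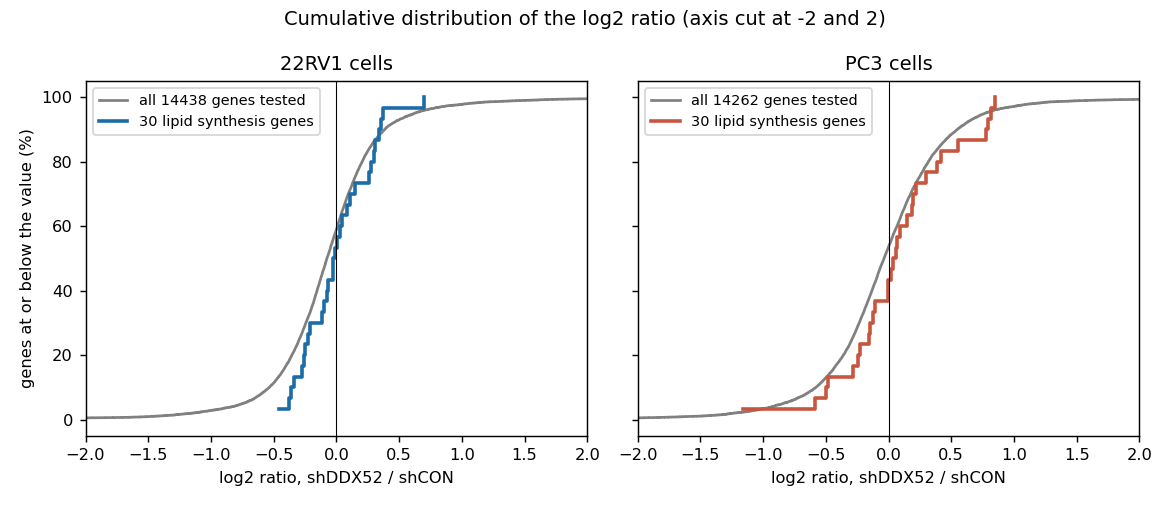
Cumulative share of genes (vertical axis, percent) at or below each log2 ratio (horizontal axis) in 22RV1 and PC3, for the 30 lipid synthesis genes (colored) and all genes tested (grey), with the horizontal axis limited to −2 to 2. The colored curves run close to the grey ones, with medians of −0.016 against −0.076 in 22RV1 and 0.047 against −0.036 in PC3, and the member curve in 22RV1 begins only at −0.46.

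In control cells, the order of the levels was led by the same gene in both lines. FDPS, farnesyl diphosphate synthase, was the most abundant member, at 501 TPM in 22RV1 shCON and 454 TPM in PC3 shCON. Next in 22RV1 were FDFT1 at 326, FASN at 292, PMVK at 240.1 and EBP at 222 TPM, and in PC3 they were FADS2 at 164, MVD at 149.8, PMVK at 136 and EBP at 105 TPM. STARD4 was the lowest member in both lines, at 1.93 and 2.07 TPM, and ELOVL6 the next lowest, at 7.40 and 5.52 TPM. TPM is corrected for length, so these levels can be ordered between genes, but neighbors in the order cannot be separated without replicates.

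Most members stood higher in 22RV1 than in PC3 control cells. This held for 22 of the 30, or 73.3%, beside 52.4% of the genes tested in both lines, while 8 were higher in PC3, and the 2 lines come from separate tables, so the levels are set side by side only. FDFT1, squalene synthase and the first enzyme committed to sterols, had the widest gap, 5.63-fold higher in 22RV1. HMGCS1, ACLY, SREBF2, FASN, ACACA and INSIG1 were 3.73, 3.21, 2.93, 2.92, 2.79 and 2.58-fold higher in 22RV1. Those with the opposite order were led by FADS2, a fatty acid desaturase, 2.34-fold higher in PC3, followed by NSDHL at 1.74-fold. Of the 4 members that stood 1.5-fold higher with shDDX52 in PC3, HMGCS1, INSIG1 and ACLY were among those with the lowest PC3 control level relative to 22RV1, and both figures rest on the same PC3 shCON library. After knockdown they stood at 19.9, 19.0 and 89.8 TPM in PC3, still below the 40.5, 30.4 and 156 TPM of 22RV1 shDDX52.

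**Figure D2:**
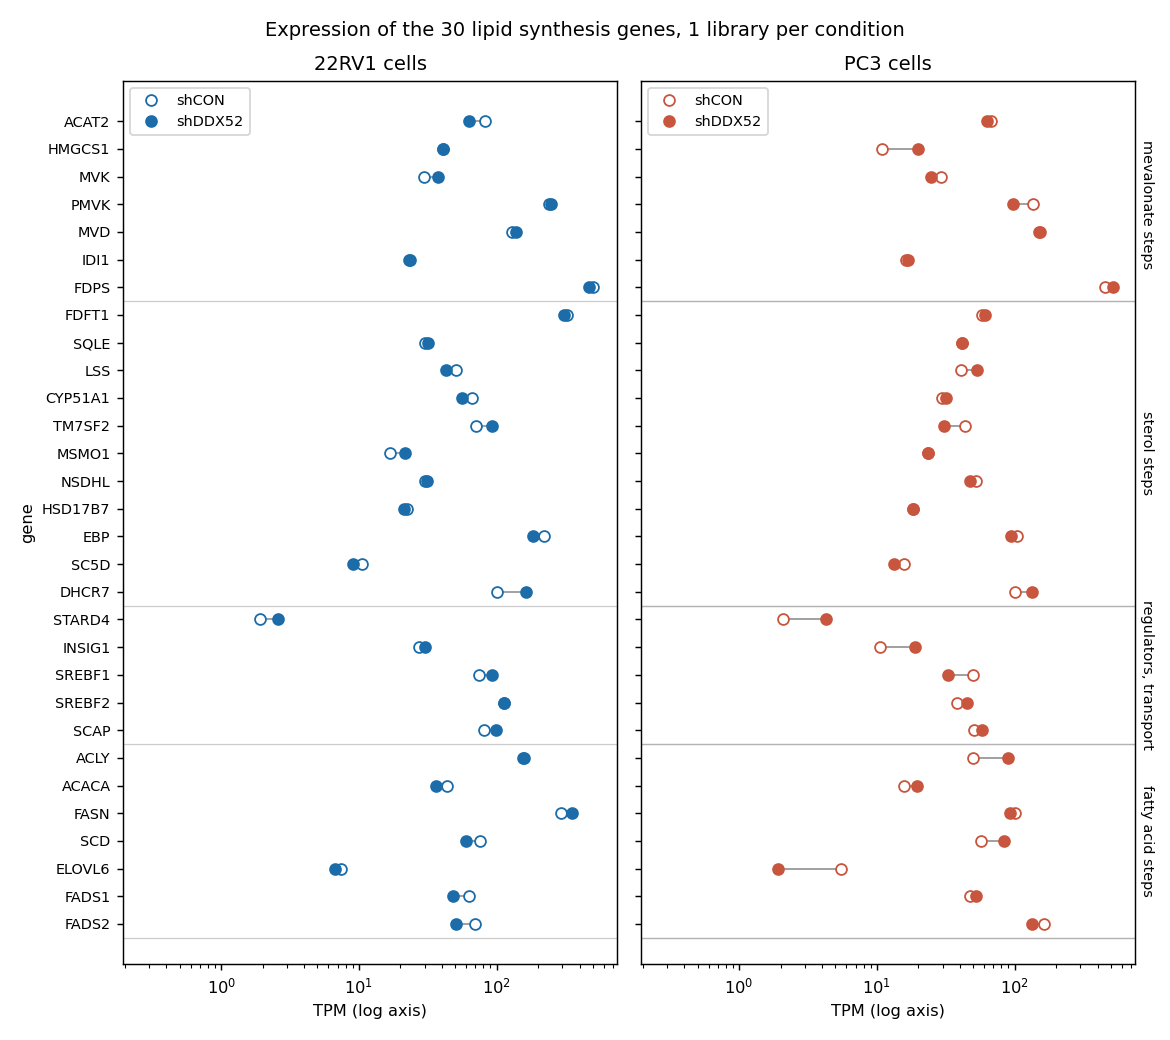
TPM of the 30 genes (horizontal axis, logarithmic) in 22RV1 and PC3, with open circles for shCON and filled circles for shDDX52, 1 library each and no error bars. Most pairs of circles nearly touch, while HMGCS1, STARD4, INSIG1, ACLY and ELOVL6 are drawn apart in PC3 and DHCR7 in 22RV1.

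Over the 7 genes of the mevalonate steps, the median log2 ratio was −0.0080 for 22RV1 and 0.037 for PC3. HMGCS1, the cytosolic synthase that makes the hydroxymethylglutaryl-CoA from which mevalonate is formed, was 40.7 TPM in the 22RV1 shCON library against 40.5 TPM with shDDX52. It was 10.9 TPM in the PC3 shCON library against 19.9 TPM with shDDX52, and the log2 ratio of 0.81 exceeded 95.6% of the genes tested there. It was thus nearly level in one line and close to double in the other.

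ACAT2, the thiolase at the entry of the pathway, was 82.4 and 63.1 TPM in 22RV1, shCON first, and 67.5 and 62.5 TPM in PC3. Its log2 ratios were −0.38 and −0.11. An exon of ACAT2 overlaps TCP1 on the other strand over as much as 397 bases. Longer overlaps on that strand were annotated with SOD2-OT1, a noncoding gene, over as much as 1309 bases, and with SOD2, over 1106 bases. SOD2-OT1 was at 0.91 TPM or less in every library, and the SOD2 identifier of that annotation had no deposited value. TCP1, a chaperonin subunit, was 277 and 162 TPM in 22RV1 and 152 and 127 TPM in PC3, lower with shDDX52 in both as ACAT2 was. The sources used here do not state that the counting used strand, and the part of these overlaps in the ACAT2 values was not tested.

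MVK and PMVK, the kinases that phosphorylate mevalonate in turn, were lower in PC3 and not in 22RV1. MVK was 29.4 and 37.6 TPM in 22RV1 and 29.2 and 24.5 TPM in PC3, with log2 ratios of 0.34 and −0.24. PMVK was 240.1 and 248 TPM and 136 and 96.8 TPM, with log2 ratios of 0.045 and −0.48. Neither reached 1.5-fold, and the gap between the lines was 0.58 for MVK and 0.53 for PMVK on the log2 scale. An exon of MMAB, a cobalamin enzyme gene, overlaps MVK on the other strand over as much as 225 bases. MMAB was 162 and 166 TPM in 22RV1, shCON first, and 101 and 82.3 TPM in PC3, on the same side of its control as MVK in each line, and its part in the MVK values was not tested.

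The last enzymes of this segment changed little. MVD, the decarboxylase, was 128 and 139 TPM in 22RV1 and 149.8 and 154 TPM in PC3. IDI1, the isomerase, was 23.5 and 23.1 TPM and 16.2 and 16.9 TPM. FDPS, which joins isoprene units into farnesyl diphosphate, was 501 and 468 TPM and 454 and 516 TPM, with log2 ratios of −0.10 and 0.18. The FDPS pseudogenes in the tables were listed at 0.15 TPM or less in every library.

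Over the 11 genes of the sterol steps from squalene, the median was −0.071 for 22RV1 and −0.0034 for PC3. DHCR7, the reductase that performs the final reduction in one branch of the pathway, was the only member to reach 1.5-fold in 22RV1, at 99.7 TPM in the 22RV1 shCON library against 162 TPM with shDDX52 (log2 ratio 0.70). It was 100.4 TPM in the PC3 shCON library against 135 TPM with shDDX52 (log2 ratio 0.42). It was the enzyme with the highest log2 ratio in 22RV1, and among these 11 genes it also had the highest in PC3.

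TM7SF2, a sterol C14 reductase of the endoplasmic reticulum, went opposite ways. It was 71.0 and 92.1 TPM in 22RV1, shCON first, and 43.3 and 30.4 TPM in PC3, with log2 ratios of 0.37 and −0.50. LSS, which closes the sterol ring system, and CYP51A1, the lanosterol demethylase, had the reverse pattern at smaller size. LSS was 50.4 and 42.9 TPM in 22RV1 and 40.7 and 53.4 TPM in PC3, and CYP51A1 was 66.4 and 55.6 TPM and 29.5 and 31.5 TPM. MSMO1, a sterol methyl oxidase, was higher in 22RV1, at 16.8 and 21.8 TPM, and level in PC3, at 23.4 and 23.3 TPM.

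EBP, the sterol isomerase, and SC5D, the desaturase that follows it, were lower in both lines, without reaching 1.5-fold. EBP was 222 and 183 TPM in 22RV1 and 105 and 93.5 TPM in PC3, with log2 ratios of −0.27 and −0.16. SC5D was 10.5 and 9.0 TPM and 15.6 and 13.2 TPM, with log2 ratios of −0.21 and −0.23. These signs were the same in both lines under the 5 other settings of pseudocount and scaling, and the sizes are near the median absolute change of all genes given above.

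The remaining sterol enzymes stood near their controls. FDFT1 was 326 and 310.2 TPM in 22RV1 and 57.9 and 60.8 TPM in PC3. SQLE, the squalene epoxidase and a rate-limiting step, was 30.1 and 32.0 TPM and 41.6 and 41.5 TPM. NSDHL, which works with MSMO1 in removing methyl groups, was 30.3 and 31.0 TPM and 52.7 and 47.4 TPM, and HSD17B7, the ketoreductase of the same complex, was 22.5 and 21.3 TPM and 18.1 and 18.4 TPM. The transcribed pseudogene HSD17B7P2 was at 0.85 TPM or less in every library.

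The 5 regulators and transporters were the segment with the highest medians, 0.27 in 22RV1 and 0.22 in PC3. In 22RV1 all 5 were above 0, against 40.9% of all genes tested, and in PC3 4 of 5 were, against 46.3%. With 5 genes and 1 library per condition these are counts only. None of the 5 reached 1.5-fold in 22RV1.

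INSIG1, which retains the SREBP-SCAP complex in the endoplasmic reticulum and is itself an SREBP target, was 27.3 TPM in the 22RV1 shCON library against 30.4 TPM with shDDX52. It was 10.6 TPM in the PC3 shCON library against 19.0 TPM with shDDX52, and the log2 ratio of 0.79 exceeded 95.3% of the genes tested. STARD4, a sterol transfer protein and a known SREBP-2 target, was 1.93 and 2.60 TPM in 22RV1, shCON first, and 2.07 and 4.25 TPM in PC3, with log2 ratios of 0.30 and 0.77. Its level was low throughout, so its log2 ratio in PC3 moved from 0.39 with a pseudocount of 5 TPM to 1.00 with 0.1 TPM.

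The 2 SREBP genes differed from each other in PC3. SREBF1, which encodes SREBP-1, was 74.9 TPM in the 22RV1 shCON library against 92.8 TPM with shDDX52 (log2 ratio 0.31). It was 49.9 TPM in the PC3 shCON library against 32.8 TPM with shDDX52 (log2 ratio −0.59), which just passed 1.5-fold. SREBF2, which encodes SREBP-2, was 113 and 113 TPM in 22RV1 and 38.4 and 44.9 TPM in PC3, with log2 ratios of 0.0077 and 0.22. SREBF1 mRNA thus stood at 65.8% of control in PC3 while SREBF2 stood at 117%. SREBF1 ran from −0.60 to −0.47 in PC3 under the 5 other settings, and remained past 1.5-fold in only 1 of them, the pseudocount of 0.1 TPM. An exon of RAI1 overlaps SREBF1 on the other strand over as much as 442 bases, and RAI1 was 18.3 and 19.8 TPM in PC3. SCAP was 81.3 and 98.5 TPM in 22RV1 and 50.7 and 58.2 TPM in PC3, higher in both lines at log2 ratios of 0.27 and 0.20. These are mRNA levels and do not measure the cleaved, active SREBP proteins.

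**Figure D3:**
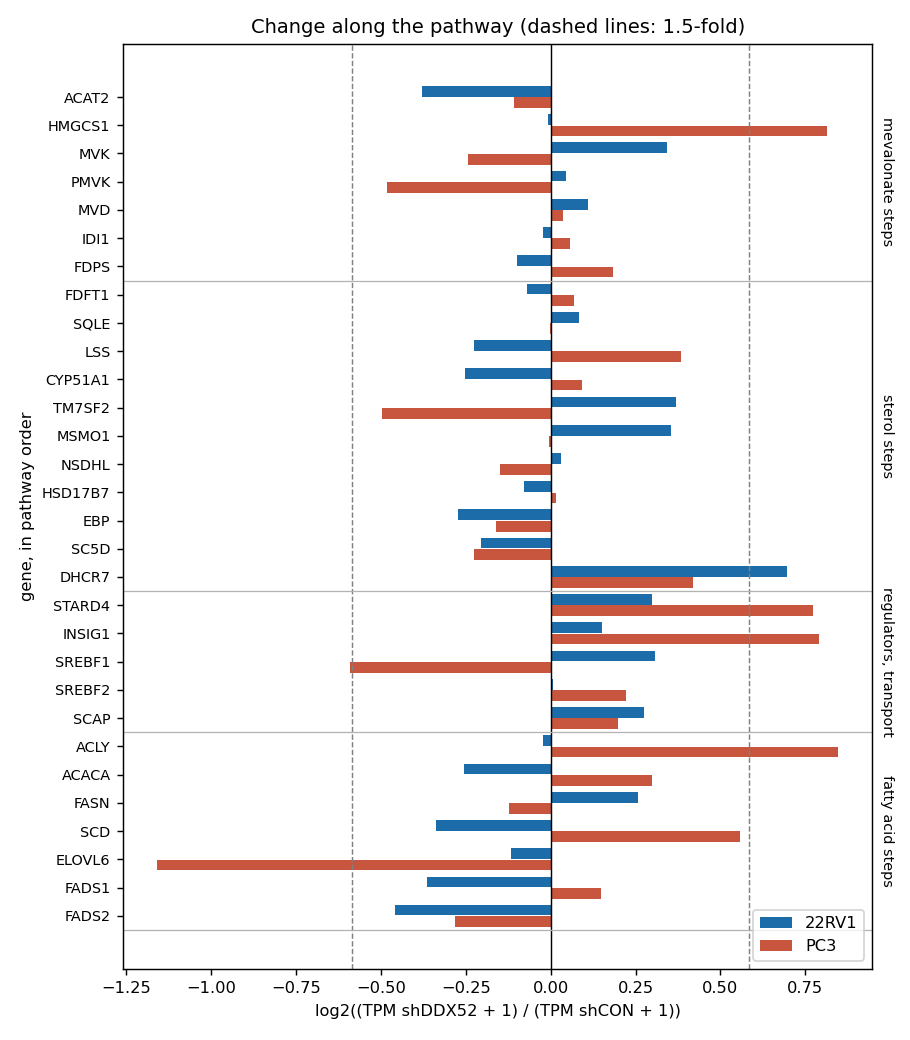
Log2 ratio of shDDX52 against shCON (horizontal axis) for each gene in pathway order (vertical axis), blue for 22RV1 and red for PC3, with dashed lines at 1.5-fold. HMGCS1, STARD4, INSIG1 and ACLY pass the upper line and SREBF1 and ELOVL6 the lower line in PC3, while DHCR7 alone passes a line in 22RV1.

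The median over the 7 genes of the fatty acid steps was −0.26 in 22RV1, where 6 of 7 were below 0 beside 58.8% of all genes tested, and 0.15 in PC3, where 4 of 7 were above 0 beside 46.3%. ELOVL6 and FADS2 were below 0 in both lines. ACLY, the citrate lyase that supplies cytosolic acetyl-CoA to both pathways, was 159 TPM in the 22RV1 shCON library against 156 TPM with shDDX52. It was 49.5 TPM in the PC3 shCON library against 89.8 TPM with shDDX52, and its log2 ratio of 0.85 was the highest of the 30 members there and exceeded 96.0% of the genes tested. An antisense gene, AC125257.2, overlaps an exon of ACLY over as much as 156 bases. It was 104 and 50.3 TPM in 22RV1, shCON first, and 44.6 and 226 TPM in PC3, so it moved with ACLY in PC3 and not in 22RV1. Without strand, reads of such a pair cannot be told apart over the shared bases, and its part in the ACLY value was not tested.

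ACACA and SCD were lower in 22RV1 and higher in PC3. ACACA, the acetyl-CoA carboxylase that commits carbon to fatty acids, was 43.7 and 36.4 TPM in 22RV1 and 15.7 and 19.5 TPM in PC3, with log2 ratios of −0.26 and 0.30. SCD, which makes monounsaturated fatty acids, was 76.0 and 60.0 TPM and 56.5 and 83.6 TPM, with log2 ratios of −0.34 and 0.56. Neither passed 1.5-fold in either line, but the PC3 value of SCD lay just under it and passed under each of the 3 other scalings. For SCD the lines were farther apart than for ACACA, with 0.89 between the log2 ratios.

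FASN, the synthase that builds palmitate, had the opposite pattern, at 292 and 349.8 TPM in 22RV1 and 100.3 and 92.1 TPM in PC3. Its log2 ratios were 0.26 and −0.12, of which the PC3 value turned to 0.0068 with TPM rescaled over nuclear protein-coding genes.

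ELOVL6, the elongase that lengthens palmitate to stearate, had the largest change of the list. It was 5.52 TPM in the PC3 shCON library against 1.92 TPM with shDDX52, leaving 34.8% of its control level, and the log2 ratio of −1.16 was among the lowest 2.36% of the genes tested. It was 7.40 TPM in the 22RV1 shCON library against 6.74 TPM with shDDX52 (log2 ratio −0.12). The level was low in both lines, and the PC3 log2 ratio ran from −1.48 with a pseudocount of 0.1 TPM to −0.60 with 5 TPM.

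FADS1 and FADS2, the front-end desaturases of polyunsaturated fatty acids, are neighbors on chromosome 11. FADS1 was 62.7 and 48.5 TPM in 22RV1 and 47.5 and 52.6 TPM in PC3, and FADS2 was 69.9 and 50.6 TPM and 164 and 134 TPM. Both were lower in 22RV1, at log2 ratios of −0.37 and −0.46, the latter the lowest of the 30 members there. In PC3 they parted, at 0.15 and −0.28. Their exons overlap on opposite strands over as much as 165 bases in the annotation.

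Set against each other within PC3, the members known as SREBP targets did not share a direction. HMGCS1, INSIG1, STARD4, ACLY and SCD stood between 0.56 and 0.85 on the log2 scale. SQLE, MSMO1, IDI1, MVD and HSD17B7 stood between −0.0041 and 0.056, and PMVK, TM7SF2 and ELOVL6 between −1.16 and −0.48. The same genes in 22RV1 ran from −0.34 for SCD to 0.37 for TM7SF2. The other enzymes among the members lay in the gaps between these ranges in PC3, from −0.28 for FADS2 to 0.42 for DHCR7. The ranges are therefore parts of a continuous spread and not separate groups. In PC3, the spread within each segment was wider than the distance between the segment medians.

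Other genes of lipid metabolism were grouped in 5 lists with 72 genes in all. The list of SREBP processing and other sterol genes had a median of −0.14 in 22RV1, with 12 of 17 tested genes below 0, and of 0.18 in PC3, with 13 of 18 above 0, beside the 58.8% and 46.3% of all genes given above. One of them reached 1.5-fold, ERLIN2, an endoplasmic reticulum protein that takes part in INSIG and sterol sensing, at 21.8 and 12.4 TPM in 22RV1, shCON first, and 6.39 and 7.24 TPM in PC3. Both medians kept their signs under the 3 other scalings, but the 22RV1 value lay close to that of all genes. Centred on the median of all genes tested, it was −0.066, with 9 of 17 genes below 0. The PC3 median was then 0.22, with 13 of 18 above 0. In the isoprenoid branch, with medians of −0.073 and 0.027, PDSS1, which makes the side chain of coenzyme Q, was lower by 1.5-fold in both lines, at 15.2 and 9.59 TPM in 22RV1 and 8.37 and 5.15 TPM in PC3.

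The list of LXR and sterol efflux genes had a median of −0.11 over 7 tested genes in 22RV1 and −0.048 over 6 in PC3, the latter turning above 0 with both rescaled TPM versions. NR1H3, which encodes LXR alpha, the sterol-activated receptor known to drive SREBF1 transcription, was 32.5 and 28.9 TPM in 22RV1 and 43.8 and 25.6 TPM in PC3, with a log2 ratio of −0.75 in the line where SREBF1 was also lower. NR1H3 stood at 58.4% of control there, and whether the 2 genes are linked was not tested.

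Among other fatty acid synthesis and elongation genes, the median was −0.12 for 22RV1, with 3 of 15 tested genes lower and 1 higher by 1.5-fold, and 0.098 for PC3, with 1 of 16 lower and 2 higher. Over all genes tested these shares were 8.47% and 5.61% in 22RV1 and 9.84% and 8.95% in PC3. Lower by 1.5-fold in 22RV1 were ACSL1 and ACSL3, which activate fatty acids to acyl-CoA, and the elongase ELOVL5. ACSL1 was 12.9 and 6.46 TPM in 22RV1, shCON first, and 12.7 and 14.6 TPM in PC3. ACSL3 was 19.6 and 12.1 TPM and 46.7 and 31.3 TPM, lower in both lines, and ELOVL5 was 45.6 and 29.2 TPM and 22.3 and 26.9 TPM. MCAT and MECR belong to the separate mitochondrial fatty acid synthesis. MCAT was 1.5-fold higher in 22RV1, at 39.0 and 59.1 TPM, and MECR 1.5-fold lower in PC3, at 33.7 and 20.3 TPM.

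Fatty acid oxidation, the opposing pathway, was the list with the lowest median in PC3, −0.30, beside −0.036 over all genes. All 16 genes were below 0 there, where 53.5% of all genes tested were. Of the 16, 2 reached 1.5-fold lower, where 9.84% of all genes did. ETFDH, which passes electrons from fatty acid oxidation to the respiratory chain, was 21.0 and 15.7 TPM in 22RV1 and 15.2 and 7.97 TPM in PC3, and ACADM, the medium-chain dehydrogenase, was 26.7 and 25.4 TPM and 13.1 and 8.35 TPM. Below 0 under the other scalings were 11 of 16 genes with nuclear protein-coding TPM, 13 with centring on all genes and 14 without mitochondrially encoded and the 20 highest genes, and the median stayed between −0.27 and −0.18. In 22RV1 the median was −0.14, with 11 of 16 below 0, beside 58.8% of all genes tested. Summed over these genes, TPM was 2023 with shCON and 2206 with shDDX52 in 22RV1, opposite to the median, and 1439 and 1228 in PC3.

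**Figure D4:**
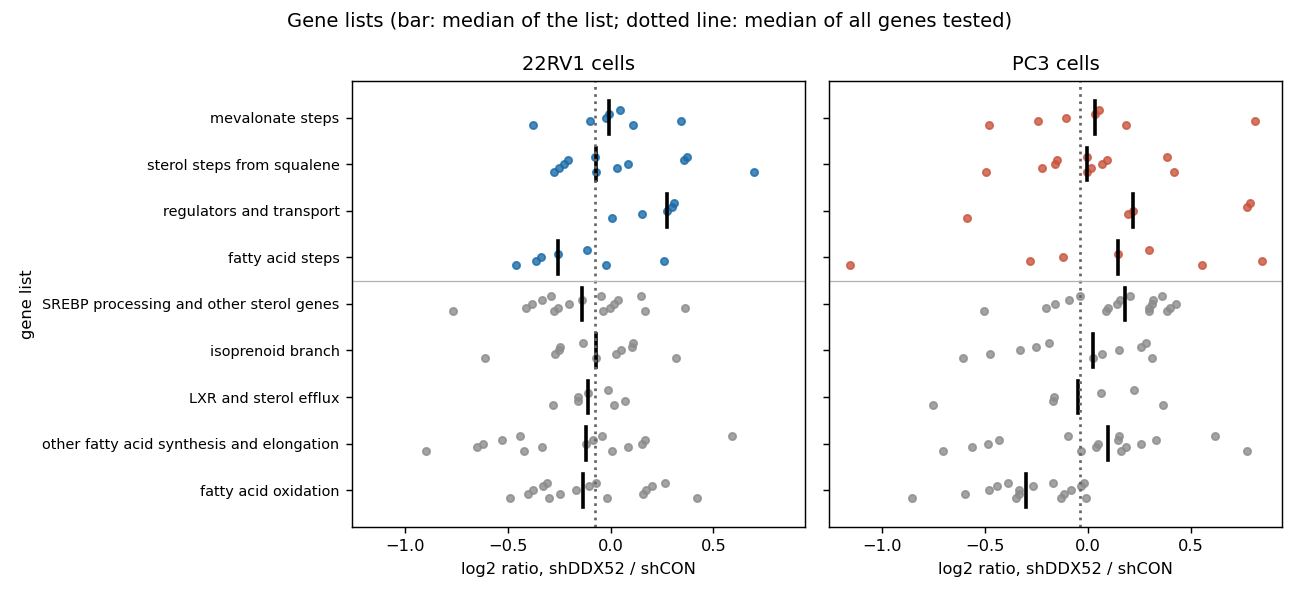
Log2 ratio of each tested gene (points) in the 4 segments of the 30 members (colored) and the 5 other lipid lists (grey), with a black bar at the median of each list and a dotted line at the median of all genes tested. Most medians lie within 0.2 of the dotted line, and fatty acid oxidation in PC3 lies at −0.30 with all points left of 0.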

How the data were processed

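RNA from 22RV1 and PC3 cells with shCON or shDDX52 was sequenced with 1 library per condition. Per the labels, libraries were made from total RNA with an Illumina TruSeq kit, and the submitters' processing notes name CASAVA, HISAT2 and hg19 without versions. The authors deposited TPM per Ensembl gene. The quantification program, annotation release, filters and strand setting are not given in the sources used here. Symbols came from a table of gene names, which paired 42020 of the 60671 identifiers. Gene types and exon overlaps came from GENCODE 29 on GRCh38, which lists 58453 of them, and promoters from RefSeq on GRCh38.p14. The deposited values were joined to these annotations by identifier or symbol, not by coordinate. The exon overlaps given above are those of GENCODE 29 on GRCh38, while the submitters' notes name hg19. Whether the same overlaps were in the annotation behind the deposited values is not known.

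Log2 ratios used a pseudocount of 1 TPM and a filter of 1 TPM, reached in either of a line's libraries, and medians and counts were set beside all genes tested. Because TPM is no count and each condition has 1 library, no test was run. The members and lists were chosen with earlier results of these data known. All 30 members are named, with genes of the other lists that changed 1.5-fold with at least 5 TPM, DDX52 and cell line markers, some of which are not reported here. Promoters were to be printed for members with the sterol element, which was SREBF2. The other 5 were added after the values were seen, as were the overlapping genes TCP1, SOD2, SOD2-OT1, MMAB, RAI1 and AC125257.2. Alternatives covered the pseudocount, filter, scaling and members. The calculation was tested on simulated data. Scripts ran in Python 3.11.15 with matplotlib 3.10.9, numpy 2.4.6 and pandas 2.3.3.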

Additional observations from a re-analysis of the deposited data

Results flagged for a closer look

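With 1 library per condition, the differences between the cell lines given here were not tested, and each is drawn from 2 libraries per line. The following values had opposite directions in 22RV1 and PC3, with at least 1.2-fold in each for single genes. The log2 ratio of TM7SF2 was 0.37 for 22RV1 and −0.50 for PC3. SREBF1 had 0.31 and −0.59, and SCD had −0.34 and 0.56, so the directions of SREBF1 and SCD are the reverse of each other in both lines. The median of the 7 fatty acid genes was −0.26 in 22RV1 and 0.15 in PC3, and that of the list of SREBP processing and other sterol genes was −0.14 and 0.18. Centred on the median of all genes tested, the 22RV1 medians were −0.18 for the fatty acid genes and −0.066 for that list.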

How the results depend on the processing

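No paired analysis was possible within a cell line because each condition has 1 library. A fit over both lines with the line as a block would leave 1 residual degree of freedom and was not run. The 6 summary values, the median of the 30 members and the counts at least 1.5-fold lower and higher in each line, were recomputed under 48 alternatives. Of these, 41 were scored as the same, which meant a median within 0.1 or a count within 1.5-fold of the main one. Those without a filter could change nothing, since all 30 members passed it. The median moved by more than 0.1 with the fatty acid enzymes only, to −0.26 in 22RV1 and 0.15 in PC3, and in PC3 with TPM rescaled over nuclear protein-coding genes, to 0.17, where the median of all genes was 0.087. In 22RV1 the median lay above 0 under each of the 3 other scalings, at 0.046, 0.00074 and 0.060. The count at least 1.5-fold lower in PC3 went from 2 to 1, by loss of SREBF1, with a pseudocount of 5 TPM and under each of the 3 other scalings. The count higher in PC3 ran from 3 to 5, losing STARD4 with a pseudocount of 5 TPM or a filter of 5 TPM and gaining SCD under the scalings, while DHCR7 was the single gene called in 22RV1 under each alternative run. ACLY, HMGCS1, INSIG1 and ELOVL6 kept their calls in PC3 under all 5 pseudocounts and scalings. Of 300 single-gene values, 263 moved by less than 0.1. They are not 300 separate checks, because each scaling moves all genes of a line by nearly the same amount. No called value changed direction, but a pseudocount cannot turn a sign, and the shifts from scaling were far smaller than 1.5-fold. Leaving out a replicate could not be done.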
